A study of Homo sapiens with 24 samples.

Results

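The 9 genes described here are the ligand genes TGFB1, TGFB2, INHBA, BMP4 and GDF15 and the target genes TGFBI, ID1, ID3 and SMAD7 of the TGF-β and BMP pathway. They were taken by symbol, and all 9 were among the 13397 gene symbols listed in all 4 tables. Poly-A RNA was measured by RNA-Seq in 24 libraries of 3 triple-negative breast cancer (TNBC) cell lines, with 3 biological replicates in each of 8 conditions. Unmodified Hs578T and HCC70 cells were sorted by flow cytometry into breast cancer stem cells (BCSCs), which were CD24-CD44+ and ALDH+, and non-BCSCs, which were neither. MDA-MB-231 cells carried a control sgRNA (sgCtrl) or an sgRNA against KIF20A (sg1), a mitotic kinesin, and other MDA-MB-231 cells carried an empty vector (EV) or were labelled as KIF20A overexpression (OE). The sgRNAs were brought in by lentivirus made in an embryonic kidney derived packaging line, and only 1 guide against KIF20A was sequenced. Each of the 4 comparisons had its own table, so cell line, table and any batch that went with them cannot be told apart between comparisons. The libraries labelled KIF20A OE carried markers of other cells and had lower levels of the mesenchymal markers of MDA-MB-231, so they are named by their label throughout.

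Ligands of the TGF-β family are secreted as dimers and bring together type I and type II receptor kinases, which phosphorylate SMAD proteins. TGF-β and activin act mainly through SMAD2 and SMAD3, and BMPs through SMAD1, SMAD5 and SMAD9; with SMAD4 these enter the nucleus and bind DNA. In breast epithelium the pathway is known for arresting growth, and in carcinoma cells for mesenchymal traits and matrix production.

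Among the targets, ID1 and ID3 encode inhibitors of basic helix-loop-helix factors and are classical BMP targets, TGFBI encodes an extracellular matrix protein named for its induction by TGF-β, and SMAD7 encodes an inhibitory SMAD that is itself induced by the pathway. In GENCODE 44 on GRCh38, ID1 lies at chr20:31605283-31606515 on the plus strand, ID3 at chr1:23557926-23559501 on the minus strand, TGFBI at chr5:136028988-136063818 on the plus strand and SMAD7 at chr18:48919853-48950965 on the minus strand. The exons of these 4 genes overlapped no exon of another gene. Bases 250 to 11 before their RefSeq start are shown, a fixed window close to the start. Sites farther upstream were not searched. Capitals mark CAGAC on either strand (GTCTG when read on the strand shown), the core of the SMAD-binding element, and GGCGCC, a GC-rich SMAD site that reads the same on both strands.
ID1: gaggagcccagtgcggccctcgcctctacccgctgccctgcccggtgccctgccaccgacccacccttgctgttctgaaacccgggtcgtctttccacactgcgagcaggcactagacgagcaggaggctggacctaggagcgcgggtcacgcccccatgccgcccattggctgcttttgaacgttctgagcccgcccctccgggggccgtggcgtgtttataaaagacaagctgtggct
ID3: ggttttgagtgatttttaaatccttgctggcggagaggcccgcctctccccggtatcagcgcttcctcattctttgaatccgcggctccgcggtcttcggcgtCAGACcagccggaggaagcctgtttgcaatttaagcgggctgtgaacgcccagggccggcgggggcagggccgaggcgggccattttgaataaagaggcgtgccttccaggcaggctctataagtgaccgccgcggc
TGFBI: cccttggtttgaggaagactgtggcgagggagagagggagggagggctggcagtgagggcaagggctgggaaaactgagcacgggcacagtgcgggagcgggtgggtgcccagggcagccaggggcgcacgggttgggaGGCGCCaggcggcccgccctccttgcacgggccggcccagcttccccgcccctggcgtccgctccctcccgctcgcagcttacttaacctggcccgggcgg
SMAD7: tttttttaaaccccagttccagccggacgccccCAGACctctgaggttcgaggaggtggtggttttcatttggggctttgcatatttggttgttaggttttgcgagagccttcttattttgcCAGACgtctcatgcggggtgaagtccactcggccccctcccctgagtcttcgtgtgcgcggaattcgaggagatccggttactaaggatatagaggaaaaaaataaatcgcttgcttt
These windows were chr20:31605039-31605278 on the plus strand for ID1, chr1:23559512-23559751 on the minus strand for ID3, chr5:136028738-136028977 on the plus strand for TGFBI and chr18:48950976-48951215 on the minus strand for SMAD7, in RefSeq on GRCh38.p14, and the first of 3 listed starts was used for SMAD7. Within these windows CAGAC was found 1 time for ID3 and 2 times for SMAD7, and GGCGCC 1 time for TGFBI. Neither was found in the window of ID1, which leaves sites outside it unsearched. Over the first listed windows of the 9 genes, 5 held CAGAC and 2 held GGCGCC. Of all 35116 RefSeq windows of the same 240 bases, 36.9% held CAGAC and 15.5% held GGCGCC, so a match is common and describes only these letters.

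The ligand genes lie at chr19:41301587-41353922 (TGFB1, minus strand), chr1:218345336-218444619 (TGFB2, plus strand), chr7:41667168-41705834 (INHBA, minus strand), chr14:53949736-53958761 (BMP4, minus strand) and chr19:18374731-18389176 (GDF15, plus strand). Exons of TGFB1, TGFB2, INHBA and BMP4 overlapped 215, 701, 248 and 506 exonic bases of genes on the opposite strand, which are HNRNPUL1, TGFB2-AS1, INHBA-AS1 and an unnamed gene. TGFB2 also shares 1371 exonic bases with TGFB2-OT1 on its own strand. The libraries were stranded, but whether reads were counted by strand is not given in the sources used here, so reads in these overlaps are uncertain.

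As recovered from the deposited values, a library held 24846592 to 33879390 reads in the sorted lines. The sgRNA libraries held 41424338 to 51018667 reads and the vector libraries 15971297 to 22182293. Hs578T libraries had the mesenchymal marker list (CD44, VIM, AXL, CAV1, NT5E) at a summed 5431 to 5845 TPM and the basal epithelial list (EPCAM, CDH1, KRT5, KRT14, KRT17) at 1.4 to 2.16 TPM, whereas HCC70 had them at 303 to 341 and 5314 to 5825 TPM. ALDH1A3, a main source of ALDH activity in breast cancer cells, rose in Hs578T BCSCs (log2 fold change 1.29, limma adjusted p = 8.4e-06). In HCC70, ALDH1A3 was 84.6, 85.4 and 91.8 TPM in non-BCSCs and 105, 99.9 and 90.6 TPM in BCSCs (limma adjusted p = 0.18). ALDH1A1 was higher in level there, at 337, 327 and 328 TPM in non-BCSCs and 359, 357 and 370 TPM in BCSCs. All its BCSC libraries lay above the non-BCSC libraries, but it did not pass (limma adjusted p = 0.16). ALDH1A1 was not listed in Hs578T. CD44 did not pass in Hs578T or HCC70 (limma adjusted p = 0.51 and 0.79). CD24 was at 78.4 to 92.4 TPM in non-BCSCs and 78.5 to 87 TPM in BCSCs of Hs578T (limma adjusted p = 0.72), and at 828 to 912 and 667 to 725 TPM in HCC70 (adjusted p = 0.054). In bulk samples, fewer cells that express a gene and less of its RNA per cell cannot be told apart.

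Per length, a target gene held the highest level in both lines and GDF15 the lowest. TPM divides reads by gene length before scaling each library to the same total, so it allows levels of different genes to be compared. In Hs578T non-BCSCs the order of the mean was TGFBI (3721 TPM), ID3 (357), TGFB2 (114), TGFB1 (90.5), ID1 (69.4), SMAD7 (37.8), INHBA (21.4), BMP4 (7.85) and GDF15 (0.77), and no 2 neighbours overlapped over the 3 libraries. In Hs578T BCSCs the order was the same and only TGFB1 and ID1 overlapped. In HCC70 non-BCSCs it was ID1 (495 TPM), ID3 (356), TGFBI (194), TGFB2 (22.6), INHBA (12.3), SMAD7 (5.91), TGFB1 (3.92), BMP4 (3.04) and GDF15 (1.03), and the order in HCC70 BCSCs was again the same, with overlap only between ID1 and ID3.

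The lines thus stood apart most for TGFB1 and TGFBI. Mean TPM in non-BCSCs was 23.1 times higher in Hs578T than in HCC70 for TGFB1, 19.2 times for TGFBI, 6.39 times for SMAD7, 5.02 times for TGFB2, 2.58 times for BMP4 and 1.73 times for INHBA. ID1 was 7.13 times higher in HCC70. ID3 had overlapping values in both lines, 349 to 372 against 312 to 405 TPM, and GDF15 was slightly lower in Hs578T (0.7 to 0.896 against 0.973 to 1.11 TPM). These levels are set side by side from tables normalized separately and were not tested.

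**Figure D1:**
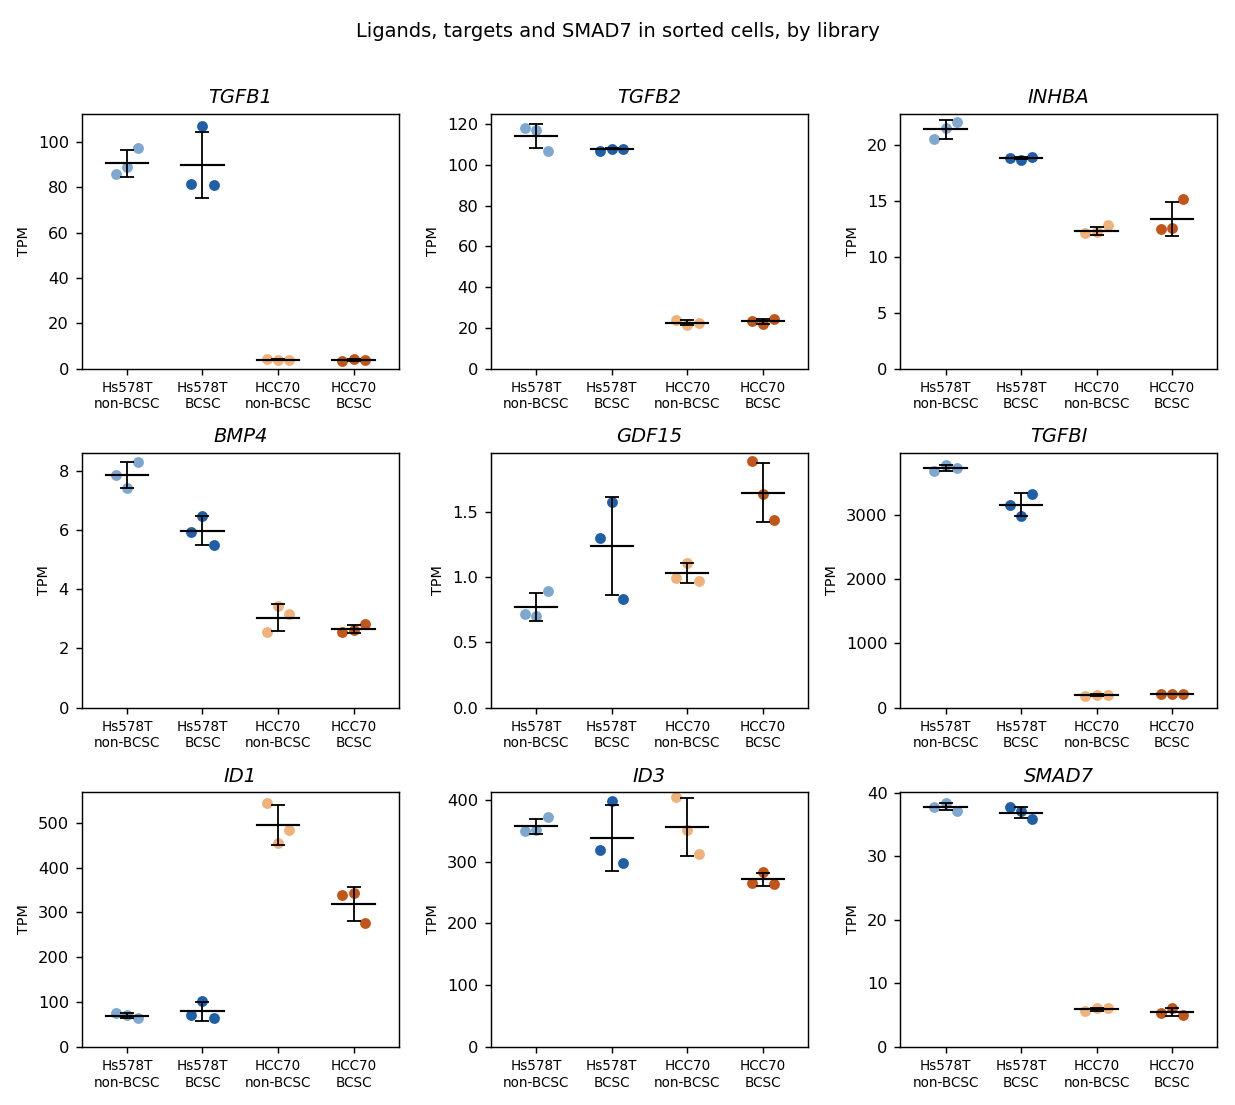
Each panel plots the TPM of 1 gene in the sorted libraries on a linear axis from 0, with a point per library, a horizontal line at the mean and bars of ± SD (n = 3). TGFB1, TGFB2, TGFBI and SMAD7 lie far higher in Hs578T and ID1 in HCC70, and the BCSC points of ID1 in HCC70 (277 to 344 TPM) all lie under the non-BCSC points (455 to 544 TPM).

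The comparison of BCSCs with non-BCSCs asks which genes mark the stem-like fraction. In Hs578T, 2 of the 9 genes passed the test, and both fell in BCSCs, namely the ligand gene BMP4 and the target TGFBI. The test was limma on log2(TPM + 1) over all genes with a mean of at least 1, and a gene passed at an adjusted p under 0.05. Over all 13324 genes tested, 953 passed (7.15%; 2.9% higher and 4.26% lower), and the count of 2 is not read as a result about these 9. Their median log2 fold change was -0.08, beside -0.01 over all genes. With libraries rescaled by the median of ratios, calls over all genes turned from 386 higher and 567 lower to 620 higher and 573 lower.

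TGFBI was 3669, 3771 and 3724 TPM in non-BCSCs and 3154, 2970 and 3326 TPM in BCSCs of Hs578T. All BCSC libraries lay under all non-BCSC libraries. The mean was 3150 ± 178 against 3721 ± 50.9 TPM (SD, n = 3), a ratio of 0.846, and limma gave a log2 fold change of -0.24 ± 0.05 (SE) with an adjusted p of 0.038. BMP4, a ligand of BMP receptors, was 7.86, 7.4 and 8.29 TPM in non-BCSCs and 5.93, 6.48 and 5.49 TPM in BCSCs. Again the groups did not overlap, and the log2 fold change was -0.35 ± 0.07 with a limma adjusted p of 0.032.

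Both calls depended on which libraries were kept and on the settings. TGFBI still passed when Hs578T BCSC replicate 2 (adjusted p = 0.042) or replicate 3 (adjusted p = 0.024) was left out, and did not pass without BCSC replicate 1 (0.14) or non-BCSC replicates 1, 2 and 3 (0.11, 0.17 and 0.098). BMP4 passed without BCSC replicate 2 (adjusted p = 0.021) and missed it without BCSC replicates 1 and 3 (0.11 and 0.076) and non-BCSC replicates 1, 2 and 3 (0.097, 0.078 and 0.09). Both log2 fold changes stayed negative in each of these limma fits, at -0.28 to -0.20 for TGFBI and -0.40 to -0.30 for BMP4. With no minimum on the mean, the adjusted p was 0.21 for TGFBI and 0.073 for BMP4, and BMP4 missed the threshold with the median of ratios (0.054) and by DESeq2 (0.12). TGFBI passed with the median of ratios (limma adjusted p = 0.034) and by DESeq2 (adjusted p = 2.0e-05). With same-numbered replicates as a block, neither passed (limma adjusted p = 0.11 for TGFBI and 0.073 for BMP4). By edgeR both passed, with adjusted p of 0.01 for TGFBI and 0.034 for BMP4.

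INHBA, which encodes the activin A subunit, was 20.5, 21.5 and 22.1 TPM in Hs578T non-BCSCs and 18.8, 18.7 and 18.9 TPM in BCSCs. The groups did not overlap, as was the case for 3 of the 9 genes, all with BCSCs lower, and for 29% of all genes tested (17% lower). Its log2 fold change of -0.17 ± 0.05 did not pass (limma adjusted p = 0.071). For any 1 gene in 3 against 3 libraries the exact permutation test cannot give a p below 0.1, which it gave for TGFBI, BMP4 and INHBA alike.

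Of the other ligands, TGFB2 was 118, 117 and 107 TPM in non-BCSCs and 107, 108 and 108 TPM in BCSCs (limma adjusted p = 0.4). TGFB1, the most widely expressed TGF-β ligand, was 85.6, 88.8 and 97.1 TPM in non-BCSCs and 81.5, 107 and 80.9 TPM in BCSCs (adjusted p = 0.93). BCSC replicate 2 was its highest library. The same library was highest for ID1 (71, 103 and 63.1 TPM in BCSCs against 74.7, 69.9 and 63.6 TPM) and ID3 (318, 399 and 298 TPM against 349, 352 and 372 TPM). Without it, the log2 fold change of ID1 turned from 0.16 to -0.05 (limma adjusted p = 0.79), that of ID3 went from -0.09 to -0.21 (adjusted p = 0.052) and that of TGFB1 from -0.02 to -0.15 (adjusted p = 0.2). SMAD7 was 37.7, 38.4 and 37.2 TPM in non-BCSCs and 37.7, 37.1 and 35.9 TPM in BCSCs, with a log2 fold change of -0.03 ± 0.04 (limma adjusted p = 0.7).

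GDF15, a distant member of the family that is induced by cell stress and acts on the receptor GFRAL, had few reads in sorted cells. In Hs578T it had 10, 11 and 15 reads in non-BCSCs and 20, 25 and 14 in BCSCs, or 0.715, 0.7 and 0.896 TPM against 1.3, 1.58 and 0.83 TPM. BCSC replicate 3 lay within the non-BCSC range. The log2 fold change on log2(TPM + 1) was 0.32 ± 0.15 (limma adjusted p = 0.25). This understates the ratio of the means, 1.6, since the added 1 is about as large as the values. GDF15 only just met the minimum mean of 1, through its BCSC libraries, with group means of 0.77 and 1.24. Without BCSC replicate 1 or 2 it was not tested. In the 4 limma fits that remained with 1 library left out, it did not pass. With no minimum on the mean, the limma adjusted p was again 0.25. In HCC70 it had 12, 15 and 15 reads in non-BCSCs and 30, 26 and 19 in BCSCs, or 0.993, 1.11 and 0.973 TPM against 1.89, 1.64 and 1.44 TPM. Here all BCSC libraries were higher, with a ratio of 1.61 and a log2 fold change of 0.39 ± 0.12 that did not pass (limma adjusted p = 0.11). The difference between the lines was 0.06 ± 0.20 (limma interaction, adjusted p = 0.87). Each value rests on 10 to 30 reads per library.

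In HCC70, ID1 was the single gene of the 9 that passed, and it fell in BCSCs. This 1 of 9 stands beside 374 of 13218 genes over the whole table (2.83%; 2.28% higher and 0.552% lower), and the median log2 fold change of the 9 was -0.02 beside 0.02 over all genes. ID1 was 544, 455 and 485 TPM in non-BCSCs and 338, 344 and 277 TPM in BCSCs. Every BCSC library lay well under every non-BCSC library, with means of 319 ± 37 and 495 ± 45.4 TPM (SD, n = 3). The ratio was 0.646 and the log2 fold change -0.63 ± 0.10 (limma adjusted p = 0.025).

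ID3 was also lower in every BCSC library but did not pass. It was 405, 351 and 312 TPM in HCC70 non-BCSCs and 266, 283 and 264 TPM in BCSCs, without overlap, and the log2 fold change was -0.39 ± 0.09 (limma adjusted p = 0.067). On recovered reads it passed, with an adjusted p of 0.024 by edgeR and 1.9e-04 by DESeq2. When 1 HCC70 library was left out, ID1 stayed between -0.69 and -0.53. It passed only without non-BCSC replicate 1 (limma adjusted p = 0.044). Without non-BCSC replicates 2 and 3 the adjusted p was 0.051 and 0.056, and without BCSC replicates 1, 2 and 3 it was 0.082, 0.056 and 0.059. ID3 passed without non-BCSC replicate 3 (limma adjusted p = 0.048).

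TGFBI was 179, 201 and 202 TPM in HCC70 non-BCSCs and 214, 218 and 216 TPM in BCSCs, the opposite order to Hs578T. The log2 fold change of 0.16 ± 0.06 did not pass (limma adjusted p = 0.18). In all, 4 of the 9 genes did not overlap between the HCC70 fractions (GDF15 and TGFBI higher, ID1 and ID3 lower in BCSCs), beside 30.9% of all genes tested (20.9% higher, 10.1% lower).

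The remaining genes overlapped in HCC70. INHBA was 12.1, 12.2 and 12.8 TPM in non-BCSCs and 12.5, 12.6 and 15.2 TPM in BCSCs, the last being BCSC replicate 3. BMP4 ranged from 2.54 to 3.44 TPM in non-BCSCs and from 2.55 to 2.81 TPM in BCSCs on 53 to 84 reads. TGFB1 (3.5 to 4.29 TPM over both fractions), TGFB2 (21.6 to 24.4 TPM) and SMAD7 (4.99 to 6.12 TPM) had limma adjusted p-values of 0.9, 0.82 and 0.56.

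Whether the fractions differed between the lines was tested as an interaction of fraction and line over the 12 sorted libraries. ID1 and TGFBI passed, 2 of the 9 genes, beside 7.11% of the 11668 genes tested. The log2 fold change of ID1 was lower in HCC70 than in Hs578T by a difference of -0.79 ± 0.21 (limma adjusted p = 0.046), and that of TGFBI was higher by 0.40 ± 0.08 (adjusted p = 0.017). INHBA (0.28 ± 0.10, adjusted p = 0.092) and ID3 (-0.29 ± 0.15, adjusted p = 0.23) did not pass. The other differences were between -0.06 for SMAD7 and 0.21 for BMP4. Without Hs578T BCSC replicate 2 the difference was -0.58 for ID1 (adjusted p = 0.056), and ID1 passed without 1 of the 12 libraries, Hs578T BCSC replicate 3 (adjusted p = 0.019), while without any other single library its adjusted p was 0.052 to 0.098. TGFBI passed in 11 of 12 such fits, at 0.34 to 0.44, and missed only without Hs578T non-BCSC replicate 2 (adjusted p = 0.054). With the median of ratios, the interaction calls over all genes went from 656 positive and 174 negative to 403 and 333.

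**Figure D2:**
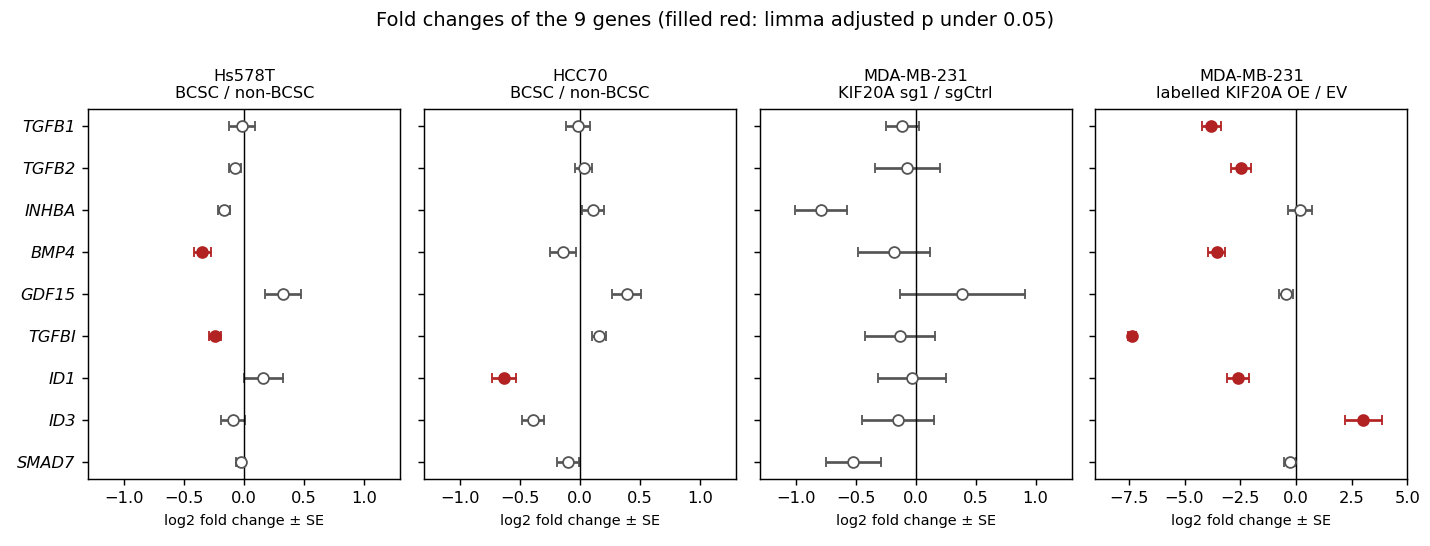
Each panel shows the limma log2 fold change of the 9 genes in 1 comparison with its SE (n = 3 per group), filled in red where the adjusted p is under 0.05; the rightmost panel has a wider scale. BMP4 and TGFBI are filled in Hs578T, ID1 in HCC70, no gene in the sg1 panel, and 6 genes in the panel of libraries labelled KIF20A OE, of which ID3 is the one to the right of 0.

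Around the 9 genes, a list of 64 genes of the pathway was read by role. In Hs578T, 52 were tested, of which 3 rose and 5 fell in BCSCs (15.4%, beside 7.15% of all genes tested, 2.9% higher and 4.26% lower). FST, which encodes the activin-binding inhibitor follistatin, was 15.1, 14 and 14.1 TPM in non-BCSCs and 21.8, 21.2 and 23.2 TPM in BCSCs (log2 fold change 0.58 ± 0.06, limma adjusted p = 0.0016). All 3 BCSC libraries lay above all 3 non-BCSC libraries. THBS1, which encodes thrombospondin-1, an activator of latent TGF-β and a TGF-β target, was 1107, 1111 and 1104 TPM against 816, 775 and 855 TPM (-0.44 ± 0.05, limma adjusted p = 0.0024).

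Among the receptors tested in Hs578T, 1 rose and 1 fell out of 11, and this and the counts of the other roles are given beside the same 7.15% of all genes and not read as results about a role. TGFBR1, the type I TGF-β receptor, was 35.2, 33.9 and 31.6 TPM in non-BCSCs and 39.9, 39.4 and 38.9 TPM in BCSCs (0.23 ± 0.05, limma adjusted p = 0.038). ENG, the co-receptor endoglin, was 28.2, 29.3 and 29.4 TPM against 23, 25.2 and 25.1 TPM (-0.24 ± 0.05, limma adjusted p = 0.034). Of 10 ligands tested, 1 rose and 2 fell, and of 14 inhibitors and latent binding proteins FST was the 1 that rose. Of 11 targets, TGFBI and THBS1 fell. Of the 6 SMAD genes 0 passed, and 0 had an unadjusted limma p under 0.05, beside 2993 of all 13324 genes tested.

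In HCC70, 46 genes of the list were tested, of which 1 rose and 1 fell (4.35%, beside 2.83% of all genes tested). LTBP1, which encodes a protein that tethers latent TGF-β to the matrix, was 30.8, 33.9 and 34.6 TPM in non-BCSCs and 45.8, 44 and 43.6 TPM in BCSCs, all higher (0.42 ± 0.06, limma adjusted p = 0.019). Without non-BCSC replicate 2, or without any 1 of the BCSC replicates, 0 genes of the list passed, LTBP1 included. ID1 was the gene that fell. LTBP1 in Hs578T was 265, 260 and 259 TPM against 299, 278 and 318 TPM, which did not pass (0.19 ± 0.06, limma adjusted p = 0.089). FST was not listed in HCC70. The median log2 fold change of the list was -0.01 in HCC70 and -0.02 in Hs578T, and over all genes 0.02 and -0.01.

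**Figure D3:**
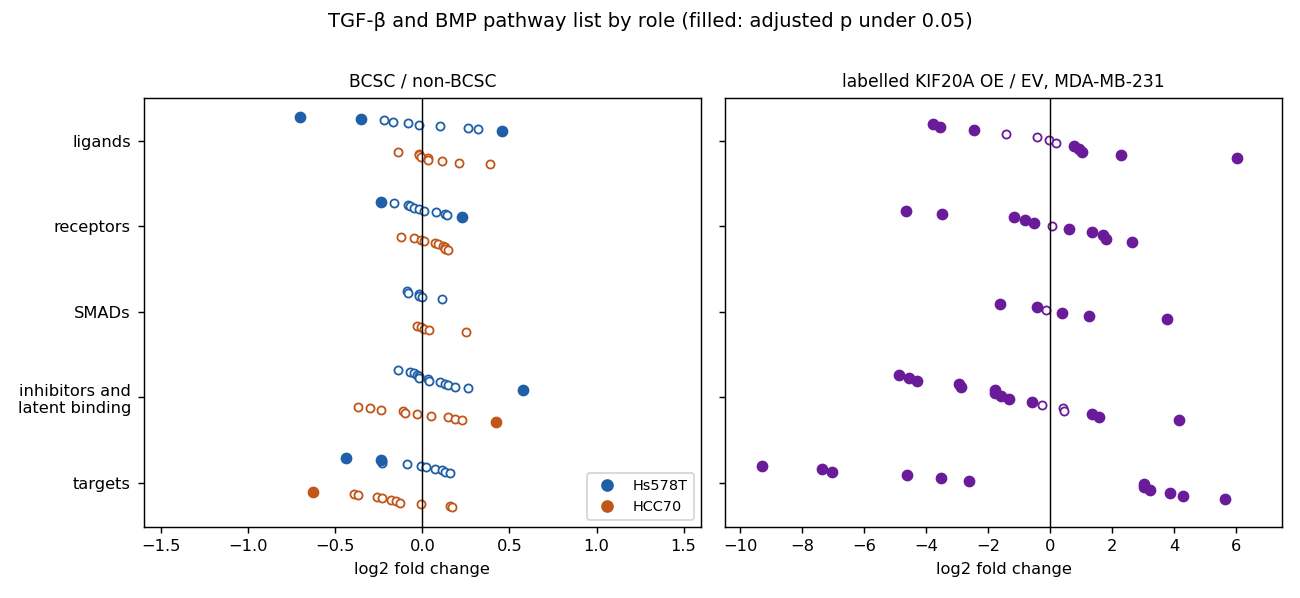
Points are genes of the 64-gene pathway list that were tested, placed by role (vertical) and limma log2 fold change (horizontal), for BCSCs against non-BCSCs on the left (Hs578T blue, HCC70 orange) and for libraries labelled KIF20A OE against EV on the right, filled where the adjusted p is under 0.05. On the left 8 Hs578T points and 2 HCC70 points are filled; on the right, on a wider scale, 48 of 57 are filled, 22 above 0 and 26 below.

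The depletion experiment asks which genes follow the loss of KIF20A. KIF20A itself was 153, 173 and 156 in sgCtrl and 122, 145 and 91.1 in sg1 libraries, in the deposited normalized signal (log2 fold change -0.45 ± 0.16, limma adjusted p = 0.69). A guide can lower the protein without lowering the RNA, so this checks the labels only in part. None of the 9 genes passed, and neither did any of the 12852 genes tested by limma (0%). At an unadjusted p under 0.05 limma had 2 of the 9 and 899 of all genes; edgeR called 0 genes and DESeq2 called 16 genes, none of the 9 among them.

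INHBA had the most separated values. It was 23, 34.3 and 31.9 in sgCtrl and 11.7, 19.2 and 20 in sg1, with a log2 fold change of -0.79 ± 0.22 (limma adjusted p = 0.69, exact permutation p = 0.1). It was the 1 gene of the 9 whose groups did not overlap, beside 13% of all genes (5.73% higher, 7.3% lower). SMAD7 was 30.7, 29 and 17.3 in sgCtrl and 22.6, 14.1 and 15.6 in sg1, with overlap (-0.52 ± 0.23, limma adjusted p = 0.69, exact permutation p = 0.2).

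For GDF15, ID1, ID3 and BMP4, sg1 replicate 3 lay outside the range of the other sg1 libraries and of sgCtrl. GDF15 was 2.55, 4.18 and 2.13 in sgCtrl and 2.34, 1.57 and 14 in sg1, so that its sg1 mean of 5.96 ± 6.95 (SD, n = 3) rested mostly on 1 library of 586 reads. In that library ID1 was 77.1, against 186 and 183 in the other sg1 libraries and 122, 146 and 159 in sgCtrl. ID3 was 8.2 there, against 22.6 and 21.3, and 17.7, 17 and 18.4 in sgCtrl. BMP4 was 170 there, against 309 and 507, and 374, 334 and 312 in sgCtrl. The same library also had the lowest KIF20A, TGFB1 (127), and TGFBI (182) of its group. Without it the log2 fold change turned from 0.39 to -0.40 for GDF15, from -0.03 to 0.38 for ID1, from -0.15 to 0.29 for ID3, from -0.18 to 0.22 for BMP4, from -0.13 to 0.11 for TGFBI and from -0.07 to 0.12 for TGFB2, with adjusted p-values of 0.91 to 0.97 by limma. Other single libraries turned signs as well. TGFB2 turned in 3 of 6 such limma fits, and TGFBI and ID1 in 2 of 6 each.

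TGFB1 (130 to 177 in sgCtrl, 127 to 146 in sg1), TGFB2 (151 to 278, 153 to 320) and TGFBI (207 to 472, 182 to 327) overlapped widely. Of the pathway list 49 genes were tested and 0 passed by limma, edgeR or DESeq2. Of these 49, 6 had an unadjusted limma p under 0.05, beside 899 of all 12852 genes tested. The mesenchymal marker list summed to 4988 to 5916 in sgCtrl and 5203 to 5783 in sg1.

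The libraries labelled KIF20A OE went against their label as MDA-MB-231 cells, and this stands beside every value of that comparison. CDKN2A, which is deleted in MDA-MB-231, had 0 reads in every EV, sgCtrl and sg1 library. Its CPM in the libraries labelled KIF20A OE was 276, 336 and 353. The mesenchymal list summed to 5772 to 6453 CPM in EV and 363 to 803 CPM in libraries labelled KIF20A OE. Most of the remaining sum was VIM, which encodes vimentin, at 2735, 2705 and 2520 CPM in EV and 776, 347 and 544 CPM in libraries labelled KIF20A OE. CAV1 was 13.8 to 26.5 CPM there, and CD44 was 0.125, 0.316 and 1.23 CPM. A list of genes of the embryonic kidney derived packaging line (IRS4, PAX2, LHX1, NEFL, NEFM) summed to 0 to 0.143 CPM in EV and to 1295 to 1880 CPM in libraries labelled KIF20A OE, with all 5 genes higher; IRS4, PAX2 and NEFL were at 0 in all EV libraries. KIF20A was 101, 143 and 124 CPM in EV and 1348, 269 and 896 CPM in libraries labelled KIF20A OE (log2 fold change 2.49 ± 0.51, limma adjusted p = 0.0025). The part of these other-cell markers in the results below was not tested.

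In that comparison 6 of the 9 genes passed, 5 lower and 1 higher, where 69.7% of the 15265 genes tested passed (46.2% higher, 23.4% lower), so the count is no result about these genes. The median log2 fold change was -2.45 over the 9 and 0.37 over all genes. With the median of ratios the median over all genes was 0.03, and 5135 genes were called higher and 5013 lower in place of 7055 and 3579. The directions of the 6 called genes did not turn. The groups did not overlap for 6 of 9 genes, beside 74.1% of all genes (48.9% higher, 25.2% lower).

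TGFBI was 191, 215 and 232 CPM in EV and 0.501, 0.0902 and 0.268 CPM in libraries labelled KIF20A OE, on 8, 2 and 5 reads. Over the summed reads scaled by the libraries' depth, EV had 800 times more, with a 95% interval of 485 to 1430 for counting error only. The log2 fold change on log2(CPM + 1) was -7.38 ± 0.18 (limma adjusted p = 6.3e-08). TGFB1 was 411, 303 and 311 CPM in EV and 28.2, 10.7 and 42.5 CPM in libraries labelled KIF20A OE, with a log2 fold change of -3.79 ± 0.42 (limma adjusted p = 8.1e-05). Both genes were lower in every library labelled KIF20A OE.

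The other genes called lower varied among EV libraries. BMP4 was 251, 74.2 and 175 CPM in EV and 12.6, 11.2 and 11.1 CPM in libraries labelled KIF20A OE (-3.56 ± 0.38, limma adjusted p = 6.9e-05). TGFB2 was 38.3, 8.75 and 22.9 CPM against 3.13, 3.11 and 2.3 CPM (-2.45 ± 0.45, limma adjusted p = 0.0014). EV replicate 2 was the lowest of its group for both ligands. ID1 was 17.1, 18.9 and 66.8 CPM against 2.82, 5.64 and 3.27 CPM (-2.61 ± 0.49, limma adjusted p = 0.0016), with EV replicate 3 far above the other EV libraries.

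ID3 went the other way. It was 0.19, 0 and 10.3 CPM in EV, on 4, 0 and 176 reads, and 14.8, 19.5 and 21.6 CPM in libraries labelled KIF20A OE. The log2 fold change was 3.03 ± 0.82 (limma adjusted p = 0.01), but it did not pass by edgeR (2.10, adjusted p = 0.19) or DESeq2 (2.09, adjusted p = 0.41). Without EV replicate 3, the library with nearly all EV reads, the limma value was 4.15 (adjusted p = 6.7e-06). In the depletion table, sgCtrl libraries of the same line had ID3 at a normalized signal of 17 to 18.4, a value set across tables normalized separately and not tested.

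GDF15, INHBA and SMAD7 did not pass. GDF15 was 7.19, 2.56 and 2.88 CPM in EV and 2, 3.2 and 2.57 CPM in libraries labelled KIF20A OE (-0.44 ± 0.33, limma adjusted p = 0.26). INHBA was 7.28, 3.04 and 6.35 CPM against 11.5, 1.85 and 9.37 CPM, and its log2 fold change of 0.19 ± 0.55 (adjusted p = 0.77) turned to -0.11 with the median of ratios. SMAD7 was 50.8, 22.6 and 29.4 CPM against 31, 24.4 and 26.1 CPM (-0.25 ± 0.27, limma adjusted p = 0.43).

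**Figure D4:**
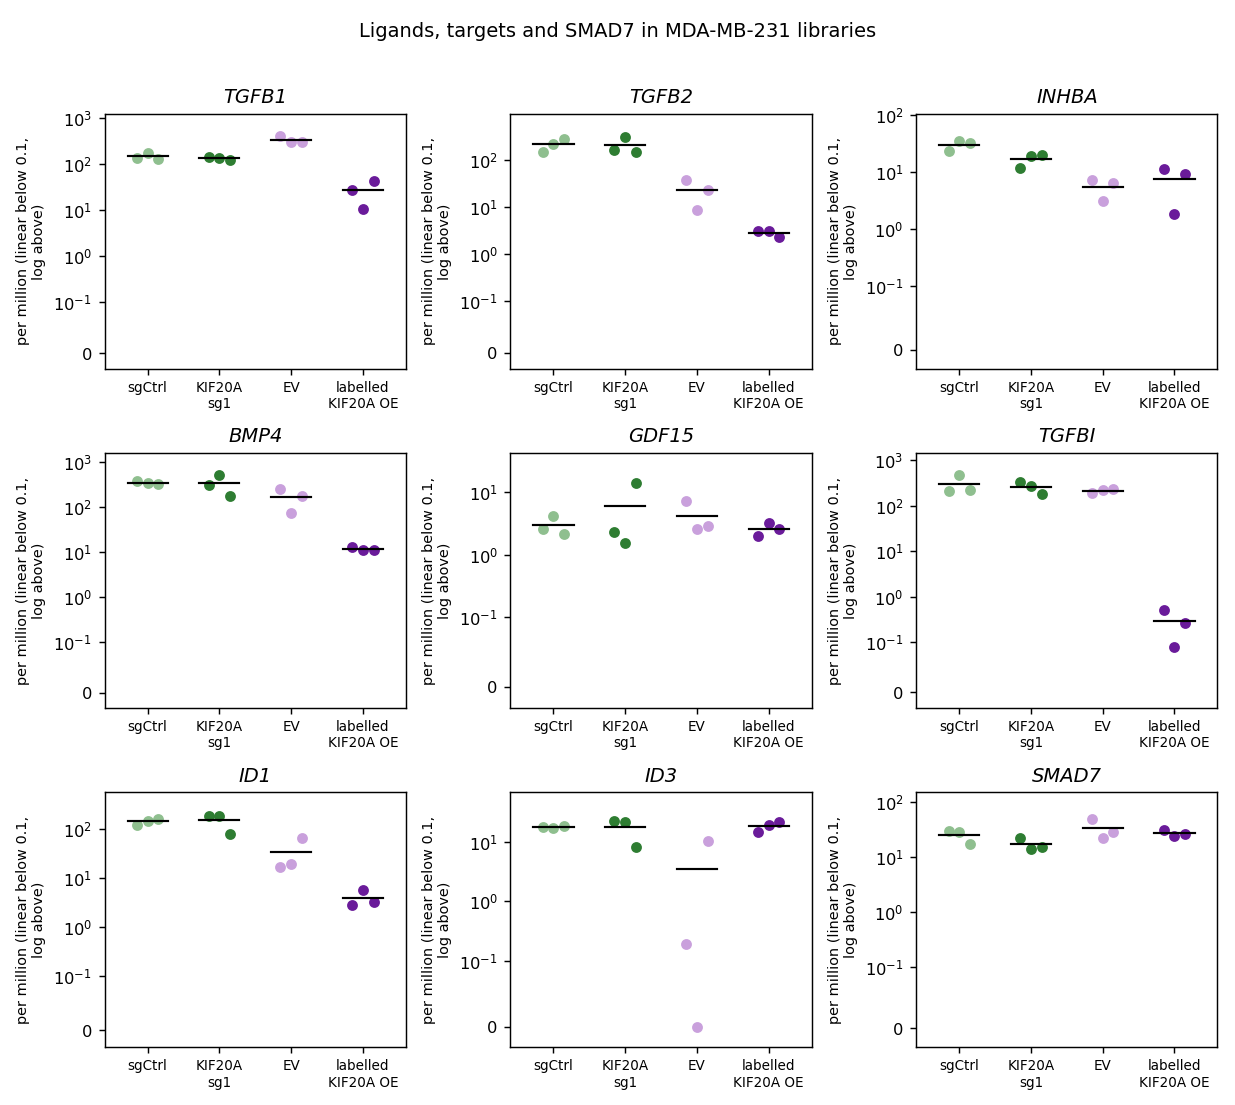
Each panel plots 1 gene in the MDA-MB-231 tables, as normalized signal for sgCtrl and sg1 and as CPM for EV and libraries labelled KIF20A OE, on an axis that is linear below 0.1 and logarithmic above, with a point per library and a line at the mean (n = 3). TGFBI lies at 0.0902 to 0.501 CPM in the libraries labelled KIF20A OE, GDF15 has 1 high sg1 library at 14, and ID3 spreads from 0 to 10.3 CPM among EV libraries.

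Of the pathway list, 57 genes were tested in that comparison, of which 22 were higher and 26 lower (84.2%), beside 69.7% of all genes tested (46.2% higher, 23.4% lower). All 12 targets tested passed, 6 in each direction, and with that share over all genes neither this count nor those of the other roles is read as a result about a role. THBS1 was 329, 204 and 349 CPM against 1.19, 1.08 and 1.23 CPM (-7.05 ± 0.22, limma adjusted p = 1.1e-07). All 3 libraries labelled KIF20A OE lay below all 3 EV libraries.

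Of 11 receptors, 5 were higher and 5 lower, beside the 69.7% of all genes called. TGFBR2, the type II TGF-β receptor, was 627, 560 and 587 CPM in EV and 23.7, 20.4 and 22.5 CPM in libraries labelled KIF20A OE (-4.67 ± 0.11, limma adjusted p = 5.4e-08). ENG was 15.9, 8.22 and 42.7 CPM against 0.689, 0.857 and 0.482 CPM. BMPR1B, a type I BMP receptor, was higher, at 0.667, 2.03 and 1.23 CPM against 12.1, 13.6 and 12.9 CPM. The groups of these 3 receptor genes did not overlap, as for 74.1% of all genes.

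Of the 6 SMAD genes, 3 were higher and 2 lower, again beside 69.7% of all genes. SMAD3, of the TGF-β arm, was 218, 218 and 118 CPM in EV and 64.2, 47.2 and 61.5 CPM in libraries labelled KIF20A OE. SMAD1 (4.43, 3.77 and 5.82 CPM against 13.3, 11.1 and 13.1 CPM) and SMAD9 (0.952, 1.26 and 4.7 CPM against 40.3, 35.6 and 40 CPM), of the BMP arm, were higher. All 3 genes had groups that did not overlap, beside 74.1% of all genes.

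Of 16 inhibitors and latent binding proteins, 3 were higher and 10 lower, beside 46.2% of all genes higher and 23.4% lower. Their median log2 fold change was -1.46, and that of all genes 0.37. LTBP2 was 205, 138 and 241 CPM in EV and 5.45, 6.04 and 5.14 CPM in libraries labelled KIF20A OE, FST 60.3, 44 and 49.2 CPM against 1.88, 1.08 and 0.75 CPM, and the BMP antagonist NOG 153, 75.3 and 37.9 CPM against 2.82, 3.88 and 2.19 CPM. Of 12 ligands, 5 were higher and 3 lower. BMP7 was at 0, 0 and 2 reads in EV and at 64.7, 67.8 and 69.7 CPM in libraries labelled KIF20A OE.

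Likeness of pattern was measured as the Euclidean distance over the log2 fold changes of the 4 comparisons, among genes tested in all 4. In the pathway list of 38 other such genes, ENG was nearest to BMP4 (0.33) and to TGFB1 (0.39), THBS1 to TGFBI (0.43), MSX2 to ID3 (0.49), SMURF2 to TGFB2 (0.47) and BMPR2 to GDF15 (0.59). INHBA and SMAD7 were nearest to each other (0.58), and ID1 was nearest to TGFB2 (0.72). Over all 9279 genes, those nearest to GDF15 were ECT2 (0.10), DLGAP5 (0.19) and GPSM2 (0.21). ECT2 had log2 fold changes of 0.29 in Hs578T, 0.36 in HCC70, 0.35 in the depletion comparison and -0.53 in the overexpression comparison, beside 0.32, 0.39, 0.39 and -0.44 for GDF15. The distance was not scaled, so the overexpression comparison, with its wider fold changes and libraries that went against their label, weighed most. None of the 4 GDF15 values passed (limma adjusted p = 0.25, 0.11, 0.87 and 0.26). Those in sorted cells rest on 10 to 30 reads a library and that of the depletion comparison mostly on 1 library.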

How the data were processed

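Poly-A RNA of sorted Hs578T and HCC70 cells and of MDA-MB-231 cells was sequenced on stranded paired-end libraries, 3 replicates per group. Per the submitters' processing notes, HISAT2 2.0.5, featureCounts 1.5.0-p3 and GRCh38 were used. The authors deposited TPM for Hs578T and HCC70 (columns sum to 1000000), CPM for the overexpression experiment, and for the depletion experiment a normalized signal, reads divided by 1 factor per library (columns sum to 977394 to 1028621). 0 sample columns were left unused. No deposited column held the authors' own comparisons. A gene that the naming rule selects is not reported here.

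Log2(value + 1) of genes with a mean of at least 1 was tested two-sided by limma 3.58.1 with a trend in R 4.3.3. Benjamini-Hochberg adjustment covered all genes of a comparison, and the threshold was 0.05. Fold changes are on that scale and understate changes of low genes. Whole reads were recovered for 100.0% of genes in each table (within 0.001 of a whole number, or 0.03 from TPM) for edgeR 4.0.16 and DESeq2 1.42.0; totals from TPM may be slightly low where a common divisor remained. The other alternatives were a pseudocount of 0.1, no minimum or a minimum of 5, the median of ratios, a replicate block and each library left out. Fits were tested on simulated data. Replicates were biological triplicates per the methods of the study, and the labels number them. The limma p-values set group differences against the spread between these replicates, moderated over all genes, and intervals cover counting error only.

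The 9 genes, the pathway list of 64 genes, the marker lists and the tests were chosen with earlier results of these data known. Genes named from the list passed the test, with a mean of at least 5 in 1 group, and were at most the 3 per role with the widest log2 fold change; members, KIF20A and markers are named regardless. LTBP1 is also given in the line where it was not called, FST is named where it was not listed, and CDKN2A is given as a check of the line. Same-numbered replicates were not paired in the main fits. Correlations of their deviations were -0.16 to 0.19, and only in the overexpression comparison did each library correlate best with its own number. Positions come from GENCODE 44 and sequences from RefSeq (GRCh38.p14; all 9 genes matched). Tables were handled with Python 3.11.15, pandas 2.3.3 and numpy 2.4.6, and plots drawn with matplotlib 3.10.9.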

Additional observations from a re-analysis of the deposited data

Results flagged for a closer look

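ID1 and TGFBI passed the limma test of the interaction of fraction and line over the 12 sorted libraries. The adjusted p was 0.046 for ID1 and 0.017 for TGFBI. With 1 library left out, ID1 passed in 1 of 12 limma fits and TGFBI in 11 of 12. With the replicate block neither passed. For ID1 the log2 fold change in BCSCs was lower in HCC70 than in Hs578T by -0.79, with every HCC70 BCSC library under every non-BCSC library and the Hs578T groups overlapping. For TGFBI it was higher in HCC70 than in Hs578T by 0.40, with BCSC libraries all lower in Hs578T and all higher in HCC70. Within HCC70 alone TGFBI did not pass (limma adjusted p = 0.18). Cell line, table and any batch that went with them cannot be told apart in this comparison. ALDH1A3, of the sorting markers, passed between the fractions in Hs578T (log2 fold change 1.29) and not in HCC70 (0.17), and its part in these differences was not tested.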

How the results depend on the processing

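Without a minimum mean, genes of the 9 that passed went from 2 to 0 in Hs578T and 1 to 0 in HCC70. Those of the pathway list went from 8 to 4 and from 2 to 1, and all genes in HCC70 from 374 to 178. In that fit the limma trend and the adjustment both took in more genes, and which of these moved the calls was not tested. After rescaling by the median of ratios, 1 of the 9 passed in Hs578T and 233 of all genes in HCC70. By edgeR, 1812 genes passed in Hs578T and 750 in HCC70, where 2 of the 9 and 7 of the list passed. By DESeq2, 1471 genes and 1 of the 9 passed in Hs578T, 1148 genes, 2 of the 9 and 10 of the list in HCC70, and 16 genes in the depletion experiment. The cause was not tested. TGFB1 in Hs578T turned to 0.00 (median of ratios), 0.01 (edgeR) and 0.02 (DESeq2), ID1 in the depletion experiment to 0.08 (edgeR) and 0.07 (DESeq2), and INHBA in the overexpression experiment to -0.11 (median of ratios).

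Same-numbered replicates share only a number: their correlations were not all above 0.1, and only in the overexpression experiment (0.01 to 0.06) did each library correlate best with its own number. With the replicate block, 0 of the 9 and 3 of the list passed in Hs578T, 0 of the 9, 0 of the list and 128 genes in HCC70, and 0 of the 9 and 302 genes, against 830 without it, for the interaction; fewer residual degrees of freedom remain.

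Leaving out 1 library at a time, 0 to 2 of the 9 passed in Hs578T, 0 to 1 in HCC70, 0 in the depletion experiment, 6 in the overexpression experiment and 0 to 2 for the interaction. For the pathway list these counts were 3 to 8, 0 to 2, 0 and 45 to 49. For all genes they were 343 to 865, 32 to 270, 0 to 144, 9576 to 10364 and 291 to 1225. The 144 genes came without sgCtrl replicate 3 and another 5 without sg1 replicate 2; the fewest came without non-BCSC replicate 2 in Hs578T (343) and for the interaction (291), and without BCSC replicate 1 in HCC70 (32). The log2 fold changes that changed sign in such fits, none of them past the threshold, were in Hs578T TGFB1 (-0.15 to 0.05), ID1 (-0.05 to 0.30), in HCC70 TGFB1 (-0.06 to 0.03), TGFB2 (-0.01 to 0.07), and in the depletion experiment GDF15 (-0.40 to 0.87), TGFB1 (-0.20 to 0.02), TGFB2 (-0.41 to 0.12), TGFBI (-0.35 to 0.25), BMP4 (-0.56 to 0.22), ID1 (-0.25 to 0.38), ID3 (-0.38 to 0.29). They were also in the overexpression experiment INHBA (-0.21 to 0.86), SMAD7 (-0.50 to 0.07) and in the interaction GDF15 (-0.07 to 0.17), TGFB1 (-0.07 to 0.13). GDF15 rests on 10 to 30 reads a library in sorted cells, and TGFBI on 2 to 8 in libraries labelled KIF20A OE.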
